A study of Homo sapiens with 4 samples.

Results

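Cholesterol synthesis, sterol transport and the control of both by the sterol regulatory element binding proteins (SREBPs) were followed through 26 named genes, taken by symbol from a table of 58735 genes. All 26 were found, and all passed the filter on low counts, with 134 to 5897 counts in each library. All libraries are labelled as wild-type A549, a human lung adenocarcinoma line, kept in DMEM with 10% fetal bovine serum. Genes that A549 is known to lack were counted in both ICAM1-high libraries, with the values given below. An antibody against the adhesion glycoprotein ICAM1 was used to sort the cells by FACS, and each subset, ICAM1-high and ICAM1-low, gave 2 libraries. No drug, genetic change or time point separates the subsets in the labels, so sorting on surface ICAM1 is the sole difference given. The labels do not tell whether replicate libraries started from different cultures. Every p-value below is thus set by the spread of these 4 libraries, largely pooled over genes, and that spread may be purely technical.

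Cells make cholesterol from acetyl-CoA through mevalonate, farnesyl diphosphate, squalene and lanosterol, and they also take it up in lipoproteins that are broken down in lysosomes. SREBPs are made as membrane proteins of the endoplasmic reticulum. When sterols are low, SCAP escorts them to the Golgi, where proteases release the part that enters the nucleus and switches on the synthesis genes. When sterols are high, INSIG proteins hold SCAP and the SREBPs back. INSIG1 is itself a target of SREBPs, which closes a feedback loop. In the lung, alveolar type II cells use this machinery for the lipids of surfactant, and A549 is often used as a model of them.

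The libraries held 17638647 and 17271825 counts in ICAM1-high and 16665362 and 16272591 in ICAM1-low. ICAM1 stood at 116 and 110 CPM (counts-per-million, scaled between libraries by TMM) in ICAM1-high and at 4.61 and 4.89 CPM in ICAM1-low. ICAM1 is the antigen of the sort. A549 is known to lack CDKN2A, CDKN2B and MTAP through a deletion. CDKN2A had 1009 and 1214 counts in ICAM1-high and 0 and 0 in ICAM1-low, and MTAP had 459 and 463 counts against 1 and 8. At these genes both libraries labelled ICAM1-high do not match the line named on the label, and no comparison of the subsets can be made without them. For the differences given below, a different state of A549 cells and the presence of cells of another kind cannot be told apart. In bulk RNA, fewer cells of a type and less RNA per cell cannot be told apart either. Of 14 fibroblast markers 8 were tested and 6 were higher in ICAM1-high, with a summed level of 88.5 and 89.8 CPM against 35.8 and 32.9 CPM. POSTN and DPT were at 0 in every library, and COL1A2 and COL3A1 at 0 in both ICAM1-high libraries. Of 14 endothelial markers 6 were tested, 4 higher and 1 lower, with sums of 52.2 and 57.0 CPM against 37.1 and 40.4 CPM and FLT1 at 0 throughout. All 4 leukocyte markers tested out of 14 were higher, with sums of 24.2 and 24.99 CPM against 11.4 and 12.9 CPM, while PTPRC, CD3E and MS4A1 were at 0 in every library. Of 15 genes typical of A549 and lung epithelium 14 were tested, 4 higher and 9 lower, with sums of 15829 and 15531 CPM against 23289 and 22835 CPM. ALDH1A1 alone made up 5569 and 5266 CPM of these sums in ICAM1-high and 11460.5 and 11182 CPM in ICAM1-low. The 4 called higher were KRT8, KRT18, KRT19 and CDH1, with KRT8 at 3013.5 and 3134 CPM against 1312 and 1267 CPM. CD14 made up 18.4 and 18.7 CPM of the leukocyte sums in ICAM1-high and 9.34 and 9.52 CPM in ICAM1-low. Some markers, such as LAPTM5 and ERG, passed the filter on low counts only through ICAM1-high. LAPTM5 had 31 and 44 counts there against 0 and 4, and ERG 37 and 52 against 0 and 0. For such genes the filter set the direction, so the numbers of markers called higher cannot be read as a test. Over all genes tested, 30.4% were called higher and 29.4% lower. The part of any of these cell types in the differences below was not tested.

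Most enzymes of cholesterol synthesis were higher in ICAM1-high, the mRNAs of the SREBPs themselves did not pass the test, the feedback gene INSIG1 was 3.22-fold higher, and NPC1, which exports cholesterol from lysosomes, was at 0.526 times its ICAM1-low level. In all, 17 of the 26 genes were higher and 1 was lower in ICAM1-high at an adjusted p under 0.05 (edgeR quasi-likelihood test over 16250 genes), and 8 were not called. Over all genes tested, 30.4% were called higher and 29.4% lower, and of the 9789 genes with a mean CPM over the 4 libraries at least that of the lowest of the 26, 31.8% were called higher. An increase of at least 1.5-fold was found for 10 of the 26 genes, against 17.5% of all genes tested. The median log2 fold change, ICAM1-high minus ICAM1-low, was 0.45 over the 26 genes and 0.01 over all genes tested. With scaling by library size alone, which raised the median of all genes by 0.17, 19 of the 26 were higher, against 41.4% of all genes tested, and 1 was lower, against 19.2%. The share of higher genes among all calls went from 50.8% to 68.3% with that scaling.

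**Figure D1:**
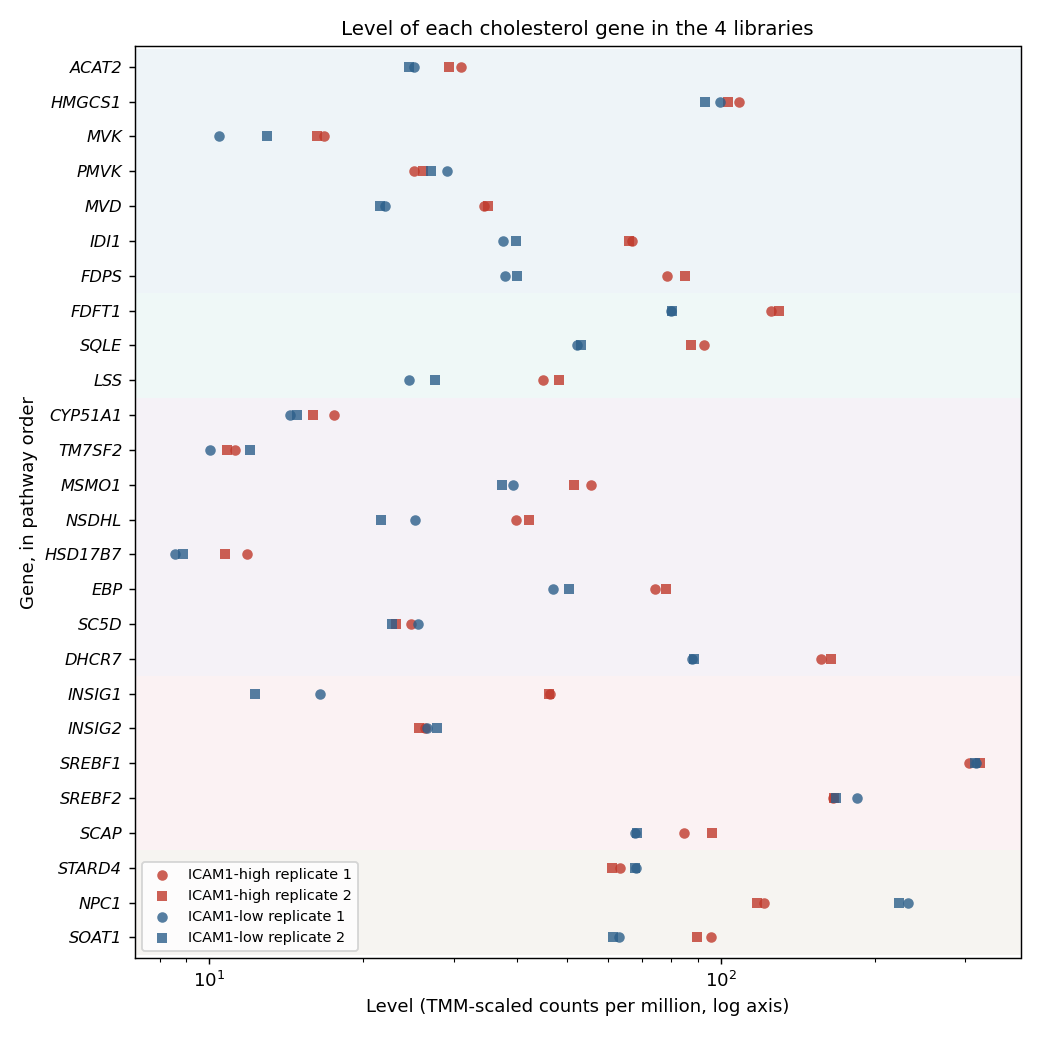
Level of each of the 26 genes (vertical axis, in pathway order, shaded by stage) in the 4 libraries, as TMM-scaled CPM on a log axis. Points of the ICAM1-high libraries lie to the right of both ICAM1-low points for most enzymes from MVD to DHCR7 and for INSIG1, and to the left for NPC1, while the points of SREBF1 overlap.

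Promoters of SREBP targets typically carry a sterol regulatory element close to a CCAAT box, the site of the cofactor NF-Y. RefSeq promoter windows (GRCh38.p14), from 250 bases before to 50 bases after the start, were at hand for 23 of the 26 genes, and both strands were searched. ACAT2, FDFT1 and SQLE, all called higher, had no window. The first window listed per symbol was taken, and the windows compared include those of genes that were not tested here. CCAAT was found in 16 of the 23 windows, against 35.7% of 27305 promoter windows of the same length. It was found in 12 of the 14 windows of genes called higher and in 4 of the other 9. A loose form of the sterol element, TCACNCNA, was found in 5 of the 23 windows and 8.98% of all windows, with 4 of the 14 and 1 of the other 9. A strict form, TCACNCCAC, every match of which is also a loose match, was in 1 of the 23 and 1.15% of all windows, with 0 of the 14 and 1 of the other 9. The E-box CACGTG was in 4 of the 23 and 7.43% of all windows, with 3 of the 14 and 1 of the other 9. These are matches of letters and not measured binding sites. The 4 windows that follow were chosen after the values were seen and show 2 enzymes and a regulator that rose, FDPS, MSMO1 and INSIG1, and SREBF2, which holds the strict form but did not pass the test. Capitals mark TCACNCNA and CCAAT on either strand (CCAAT reads ATTGG on the other strand), and all 4 are written 5′ to 3′ on the plus strand, which is the strand of the gene.
FDPS: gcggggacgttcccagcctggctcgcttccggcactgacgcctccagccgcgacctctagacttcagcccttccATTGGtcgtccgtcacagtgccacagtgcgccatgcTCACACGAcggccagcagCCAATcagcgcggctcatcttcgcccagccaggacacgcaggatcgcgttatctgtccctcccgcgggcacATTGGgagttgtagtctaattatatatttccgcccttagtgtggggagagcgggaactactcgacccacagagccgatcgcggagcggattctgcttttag
MSMO1: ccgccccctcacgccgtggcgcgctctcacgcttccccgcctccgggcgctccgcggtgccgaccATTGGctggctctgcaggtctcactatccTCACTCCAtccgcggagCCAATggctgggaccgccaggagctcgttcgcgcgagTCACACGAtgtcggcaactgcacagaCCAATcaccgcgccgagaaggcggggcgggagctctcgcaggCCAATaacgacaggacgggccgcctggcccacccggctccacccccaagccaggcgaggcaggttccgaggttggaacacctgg
INSIG1: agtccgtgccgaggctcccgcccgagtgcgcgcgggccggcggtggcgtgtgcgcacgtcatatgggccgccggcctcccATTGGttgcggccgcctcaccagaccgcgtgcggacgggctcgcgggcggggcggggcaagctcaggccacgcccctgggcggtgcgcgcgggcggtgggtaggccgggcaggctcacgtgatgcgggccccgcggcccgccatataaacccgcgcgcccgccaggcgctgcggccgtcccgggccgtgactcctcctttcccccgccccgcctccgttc
SREBF2: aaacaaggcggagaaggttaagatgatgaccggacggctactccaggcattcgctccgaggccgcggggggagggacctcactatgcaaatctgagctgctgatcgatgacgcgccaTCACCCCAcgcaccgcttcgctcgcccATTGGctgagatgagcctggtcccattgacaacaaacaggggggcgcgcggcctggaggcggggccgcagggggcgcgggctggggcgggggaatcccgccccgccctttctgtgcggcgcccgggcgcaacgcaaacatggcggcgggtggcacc
The windows lie at chr1:155308616-155308915, chr4:165327419-165327718, chr7:155297628-155297927 and chr22:41832855-41833154. In FDPS the loose element begins 140 bases before the start, with CCAAT at 122 bases on the same strand and at 176 and 51 bases on the other. MSMO1 holds the loose element at 156 and 102 bases before the start, each followed by a CCAAT box, at 139 and 76 bases, and further boxes at 185 and 34 bases. INSIG1 holds no match to either form in this window, but a CCAAT box at 170 and an E-box at 55 bases before its start. In SREBF2 the strict element begins 133 bases before the start, with a CCAAT box at 106 bases.

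Of the 7 genes of the mevalonate stage, 6 rose and 0 fell, against 30.4% higher and 29.4% lower over all genes tested. The median log2 fold change was 0.50, and the estimates were higher at the last 3 genes than at the first 4. ACAT2, the cytosolic thiolase that joins acetyl-CoA units, was at 31.0 and 29.4 CPM in ICAM1-high and 25.1 and 24.5 CPM in ICAM1-low (log2 fold change 0.28, SE 0.09, adjusted p = 0.00528). Leaving out ICAM1-low replicate 2 ended its call (log2 fold change 0.25, adjusted p = 0.0674). Its level is uncertain, since its exons share 26.5% of their bases with SOD2, which held 4 counts over all libraries, and 9.23% with TCP1, which held 17370, both on the other strand. HMGCS1, the synthase of the next step, stood at 109 and 103 CPM against 99.6 and 92.9 CPM. Its libraries did not overlap, but the difference was 0.14 on the log2 scale (SE 0.06, adjusted p = 0.0304). That call ended when any of 3 libraries was left out: ICAM1-high replicate 1 (0.09, adjusted p = 0.159), ICAM1-low replicate 1 (0.18, adjusted p = 0.0601) or ICAM1-low replicate 2 (0.08, adjusted p = 0.45).

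Of the 2 kinases listed next, 1 passed the test. MVK, mevalonate kinase, was at 16.7 and 16.2 CPM in ICAM1-high and 10.4 and 12.97 CPM in ICAM1-low, and rose by 0.50 (SE 0.12, adjusted p = 3.92e-04). Both ICAM1-low values lay below both ICAM1-high values, and without ICAM1-low replicate 1, the lower of them, the log2 fold change was 0.34 (adjusted p = 0.056). The level of MVK is uncertain, since 4.72% of its exon bases are shared with MMAB on the other strand. MMAB held 1342 counts over all libraries and MVK 972. PMVK, phosphomevalonate kinase, was at 25.1 and 26.2 CPM against 29.2 and 27.1 CPM, a log2 fold change of -0.13 with a 95% interval of -0.32 to 0.05 (adjusted p = 0.203). PMVK is the sole listed gene of this stage that did not pass the test.

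The remaining mevalonate genes showed wider gaps between the subsets. MVD, the decarboxylase that makes isopentenyl diphosphate, was at 34.4 and 35.0 CPM against 22 and 21.6 CPM (log2 fold change 0.67, SE 0.09). IDI1, which isomerises that unit, was at 67.0 and 66.2 CPM against 37.5 and 39.8 CPM (0.79, SE 0.07). FDPS, which builds farnesyl diphosphate and lies on chromosome 1 (155308748 to 155320666, GRCh38), was at 78.3 and 85.1 CPM against 37.9 and 39.9 CPM. It was 2.10-fold higher (95% interval 1.91 to 2.31, adjusted p = 1.31e-22), the largest fold among the 18 synthesis enzymes. Its level is uncertain, since 18.6% of its exon bases are shared with RUSC1-AS1 on the other strand. Over all libraries RUSC1-AS1 held 433 counts, 8 FDPS pseudogenes 29 and FDPS itself 4226. Exon bases are likewise shared with antisense genes for 15% of HMGCS1 and 14.8% of IDI1, where the antisense genes held 12 and 18 counts.

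All 3 genes that lead from farnesyl diphosphate to lanosterol rose, against 30.4% of all genes tested, with log2 fold changes of 0.67 to 0.84. FDFT1, squalene synthase, commits the pathway to sterols and was at 125 and 130.04 CPM in ICAM1-high against 80.0 and 80.3 CPM in ICAM1-low (log2 fold change 0.67, SE 0.06, adjusted p = 3.4e-17). SQLE, squalene epoxidase, a rate-limiting step, stood at 92.8 and 87.3 CPM against 52.3 and 53.2 CPM (0.77, SE 0.06, adjusted p = 1.34e-17). LSS, which folds the epoxide into lanosterol, was at 44.9 and 48.2 CPM against 24.6 and 27.6 CPM (0.84, SE 0.08, adjusted p = 4.18e-14). For each of these genes both ICAM1-high values lay above both ICAM1-low values. Such separation, in either direction, was common elsewhere, as in 10 of the 14 genes of the isoprenoid branch described below. Its share over all genes tested was not counted.

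From lanosterol onward the stage was split: 5 of 8 genes rose, 0 fell and 3 did not pass the test. Beside these counts stand 30.4% higher and 29.4% lower over all genes tested. DHCR7, a reductase of the final step (chromosome 11, 71428193 to 71452868), was at 157 and 164 CPM in ICAM1-high and 87.6 and 88.6 CPM in ICAM1-low. It was 1.82-fold higher (95% interval 1.69 to 1.96, adjusted p = 2.32e-23). NSDHL, a dehydrogenase that removes a methyl group of lanosterol, was at 39.7 and 42.1 CPM against 25.3 and 21.6 CPM, a log2 fold change of 0.80 (SE 0.09). EBP, the sterol isomerase, was at 74.4 and 78.0 CPM against 47.0 and 50.3 CPM (0.65, SE 0.07). NSDHL and EBP lie on the X chromosome. MSMO1, the methylsterol monooxygenase that works just before NSDHL, was at 55.7 and 51.7 CPM against 39.1 and 37.2 CPM (0.49, SE 0.07). HSD17B7, a ketosteroid reductase, was at 11.9 and 10.7 CPM against 8.57 and 8.87 CPM (0.37, SE 0.14, adjusted p = 0.0195). Leaving out ICAM1-high replicate 1 (0.29, adjusted p = 0.142), ICAM1-low replicate 1 (0.34, adjusted p = 0.102) or ICAM1-low replicate 2 (0.39, adjusted p = 0.0578) ended the HSD17B7 call. Its level is uncertain, since 2 pseudogenes named after it held 253 counts against its own 688.

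The 3 genes of this stage that were not called are CYP51A1, TM7SF2 and SC5D. CYP51A1, the lanosterol demethylase, was at 17.5 and 15.95 CPM against 14.4 and 14.8 CPM, a log2 fold change of 0.20 with a 95% interval of -0.03 to 0.43. It was called higher with scaling by library size alone (0.37, adjusted p = 0.00411). Another gene on the same strand, listed at 0 counts, shares 79.4% of the exon bases of CYP51A1, so its level is uncertain. TM7SF2, a sterol reductase whose reaction LBR can also carry out, was at 11.2 and 10.8 CPM against 10.04 and 12 CPM (0.0016, interval -0.27 to 0.27). SC5D, a sterol desaturase, was at 24.7 and 23.1 CPM against 25.6 and 22.8 CPM (-0.01, interval -0.21 to 0.18). For both, the ICAM1-high values lay between the ICAM1-low values. As ratios of ICAM1-high to ICAM1-low, the intervals run from 0.829 to 1.21 for TM7SF2 and from 0.867 to 1.13 for SC5D.

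**Figure D2:**
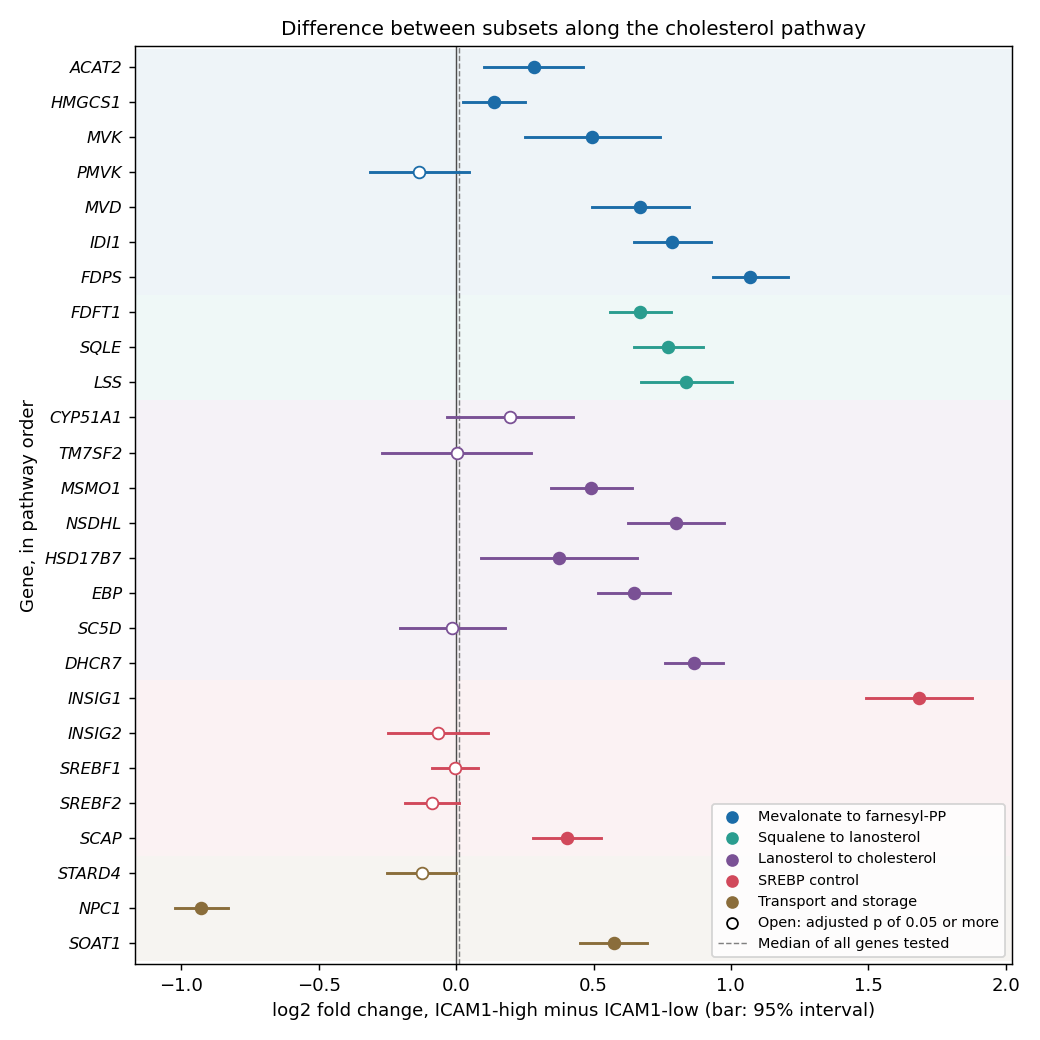
Log2 fold change (ICAM1-high minus ICAM1-low) of each gene in pathway order, with bars for the 95% interval of the edgeR fit, filled points for an adjusted p under 0.05, and a dashed line at the median of all genes tested (0.01). The enzymes range from -0.13 at PMVK to 1.07 at FDPS, with INSIG1 furthest right at 1.69 and NPC1 furthest left at -0.93.

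The 18 synthesis enzymes listed are not every enzyme of the pathway. Their summed level was 1016 and 1023 CPM in the ICAM1-high and 676 and 676 CPM in the ICAM1-low libraries. The ratio of the means was 1.51, and the 2 libraries of a subset differed far less than the subsets did. Of the 18, 14 rose, 0 fell and 4 were not called, against 30.4% higher and 29.4% lower over all genes tested. Their median log2 fold change was 0.57. Scaled per kilobase of merged exons, the most abundant enzyme was PMVK in ICAM1-low, at 21.96 CPM per kilobase, followed by DHCR7 at 21.2, and the libraries of these neighbours overlapped. In ICAM1-high DHCR7 led, at 38.6 CPM per kilobase, followed by EBP at 31.6. The lowest in both were MVK and HSD17B7, at 2.54 and 2.36 CPM per kilobase in ICAM1-high and 1.81 and 1.82 in ICAM1-low.

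Among the 5 genes of SREBP control 2 rose, INSIG1 and SCAP, 0 fell and 3 were not called, against 30.4% higher and 29.4% lower over all genes tested. INSIG1 (ENSG00000186480, chromosome 7, 155297776 to 155310235) was at 46.3 and 46.1 CPM in ICAM1-high and 16.4 and 12.3 CPM in ICAM1-low. It was 3.22-fold higher (95% interval 2.81 to 3.68, log2 fold change 1.69, SE 0.10, adjusted p = 1.15e-23), the largest increase of the 26 genes. Its ICAM1-low libraries, with 257 and 188 counts, were further apart than its ICAM1-high libraries, and the increase was 1.48 to 1.91 on the log2 scale over all alternatives, single libraries left out included. The paralog INSIG2, which has the same retention role, was at 26.3 and 25.7 CPM against 26.6 and 27.9 CPM (-0.07, 95% interval -0.25 to 0.11, adjusted p = 0.549). Per kilobase, INSIG1 was thus at 1.90 and 1.94 times INSIG2 in the ICAM1-high libraries and at 0.669 and 0.475 times in the ICAM1-low libraries, so the order of the paralogs differed between the subsets in every library.

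The SREBP genes themselves did not pass the test. SREBF1, which encodes SREBP-1 and favours fatty acid synthesis (chromosome 17, 17810399 to 17837002), was at 306 and 321 CPM in ICAM1-high and 315 and 314 CPM in ICAM1-low. The ICAM1-low values lay between the ICAM1-high values, and the log2 fold change was -0.0043 with a 95% interval of -0.09 to 0.08 (adjusted p = 0.938). With scaling by library size alone it was 0.17 (adjusted p = 2.51e-04), the same to 2 decimals as the shift of the median of all genes under that scaling. SREBF2, which encodes SREBP-2, the main driver of cholesterol synthesis (chromosome 22, 41833079 to 41907308), was at 165 and 166 CPM against 184 and 168 CPM (-0.09, interval -0.19 to 0.01, adjusted p = 0.117). These counts show transcripts and not the cleaved nuclear proteins. The level of SREBF1 is uncertain, since 6.92% of its exon bases are shared with RAI1 on the other strand. Over all libraries RAI1 held 8995 counts and SREBF1 21337. SCAP, the escort, rose, at 84.6 and 96.2 CPM against 67.8 and 68.7 CPM (0.41, SE 0.06, adjusted p = 5.03e-08). Per kilobase, SREBF1 had the highest mean of the 26 genes in both subsets. It was at 39.0 CPM per kilobase in ICAM1-high and 39.2 in ICAM1-low. In ICAM1-high its libraries, at 38.1 and 39.99 CPM per kilobase, overlapped those of DHCR7, at 37.7 and 39.4. SREBF1 exceeded SREBF2 per kilobase by 1.74 and 1.82 times in ICAM1-high and by 1.61 and 1.76 times in ICAM1-low, so that ratio overlapped between the subsets.

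Of the 3 transport and storage genes 1 rose, 1 fell and 1 was not called. These counts are near the shares over all genes tested, 30.4% higher and 29.4% lower. NPC1, which moves cholesterol out of lysosomes after uptake (ENSG00000141458, chromosome 18, 23506184 to 23586898), was the only one of the 26 genes called lower. It was at 121 and 118 CPM in ICAM1-high and 232 and 222 CPM in ICAM1-low (log2 fold change -0.93, SE 0.05, adjusted p = 4.18e-27). RMC1 on the other strand shares 5.98% of the exon bases of NPC1, and held 1556 counts against 11458 for NPC1. Without ICAM1-high replicate 1, STARD4 was called lower as well (log2 fold change -0.16, adjusted p = 0.0339). STARD4, a soluble carrier of cholesterol between membranes, was at 63.6 and 61.1 CPM against 68.2 and 67.9 CPM with all libraries (-0.13, interval -0.25 to 0.00, adjusted p = 0.0819). Its ICAM1-high values lay just below its ICAM1-low values. SOAT1, which esterifies cholesterol for storage in lipid droplets, rose, at 95.6 and 89.8 CPM against 63.2 and 61.4 CPM (0.57, SE 0.06, adjusted p = 6.7e-13).

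**Figure D3:**
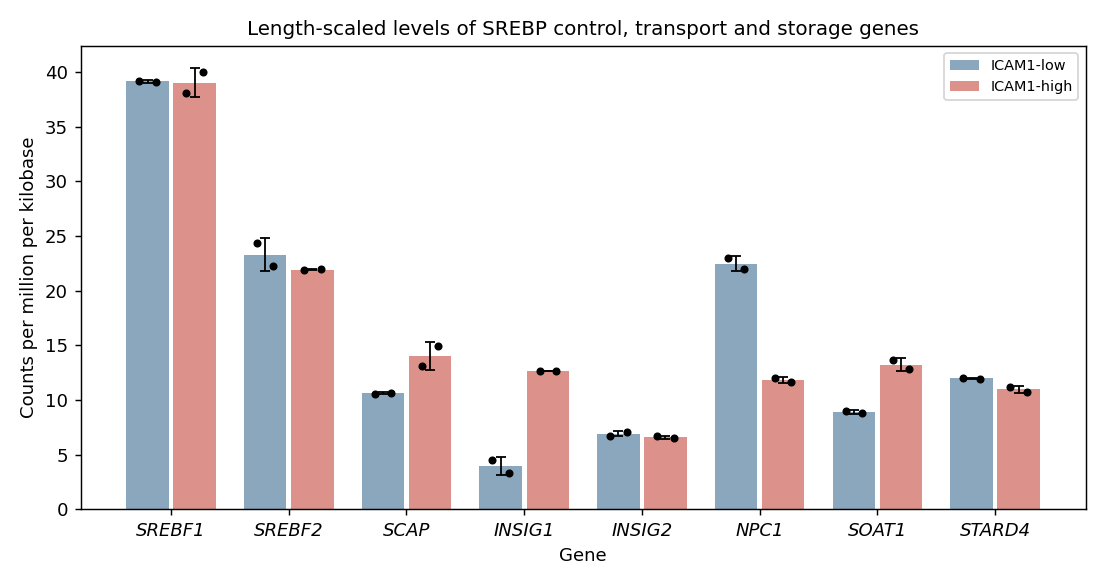
Levels of SREBP control, transport and storage genes as TMM-scaled CPM per kilobase of merged exons; bars are means, error bars the SD of 2 libraries and dots the libraries. INSIG1 lies below INSIG2 in ICAM1-low and above it in ICAM1-high, NPC1 is lower and SOAT1 higher in ICAM1-high, and the bars of SREBF1 are level.

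Other steps of the pathway were described with lists of related genes, whose counts stand against the 30.4% of all genes tested that were called higher and the 29.4% called lower. Of 9 further sterol synthesis genes, 5 rose, 1 fell and 3 were not called (median 0.23). TMEM97, an endoplasmic reticulum protein that binds NPC1 and sterols, was at 113 and 110 CPM against 62.7 and 62.1 CPM (log2 fold change 0.84, SE 0.06, adjusted p = 1.69e-20). POR, the electron donor of SQLE and CYP51A1, rose by 0.23 and FAXDC2 by 1.14 from a level of 1.10 CPM. In the list of SREBP cleavage and sterol-dependent degradation, 4 of 14 rose, a share near that of all genes tested, 6 fell and 4 were not called (median -0.12). MBTPS1, which makes the first cut of SREBPs, was higher, at 154 and 163 CPM against 123 and 119 CPM (0.39, SE 0.05). MBTPS2, which makes the second cut, was lower, at 128 and 124 CPM against 178 and 170 CPM (-0.47, SE 0.05), so the proteases differed in direction. VCP, the segregase that pulls proteins out of the membrane, rose by 0.45 and the ubiquitin ligase MARCHF6 by 0.37.

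The isoprenoid branch holds enzymes that use the products of FDPS and its neighbours for purposes other than sterols. Of its 14 genes, 2 rose, 5 fell and 7 were not called, with a median of -0.06. ICMT, which methylates prenylated proteins, rose by 0.51 (SE 0.05). COQ2 of ubiquinone synthesis fell by 0.71, PGGT1B, a subunit of a prenyltransferase, by 0.56 and the prenyl protein protease ZMPSTE24 by 0.31. In fatty acid synthesis, which SREBP-1 drives, 9 of 18 tested genes rose and 6 fell (median 0.25; 19 were listed). FASN, the fatty acid synthase, was at 857 and 966 CPM against 253 and 264 CPM (log2 fold change 1.82, SE 0.04), and ACACA, which supplies its malonyl-CoA, rose by 0.59. ME1, a source of NADPH, fell by 0.88 and MID1IP1 by 0.59.

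Sterol transport and efflux genes were mixed, 10 of 23 rising, 6 falling and 7 not called (median 0.08). ABCA1, which exports cholesterol to apolipoproteins, was at 64.9 and 62.7 CPM in ICAM1-high and 23.8 and 24.4 CPM in ICAM1-low (1.40, SE 0.08, adjusted p = 7.16e-26). VLDLR, a lipoprotein receptor, was lower, at 29.1 and 26.8 CPM against 110.4 and 107 CPM (-1.96, SE 0.07, adjusted p = 3.24e-37). The scavenging receptor LRP1, by contrast, stood at 178 and 185 CPM against 103 and 109.9 CPM (0.78, SE 0.05). CAV1, the caveolar coat protein, fell by 0.55. Like NPC1, VLDLR was thus lower in both ICAM1-high libraries, and like SOAT1, ABCA1 was higher in both.

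**Figure D4:**
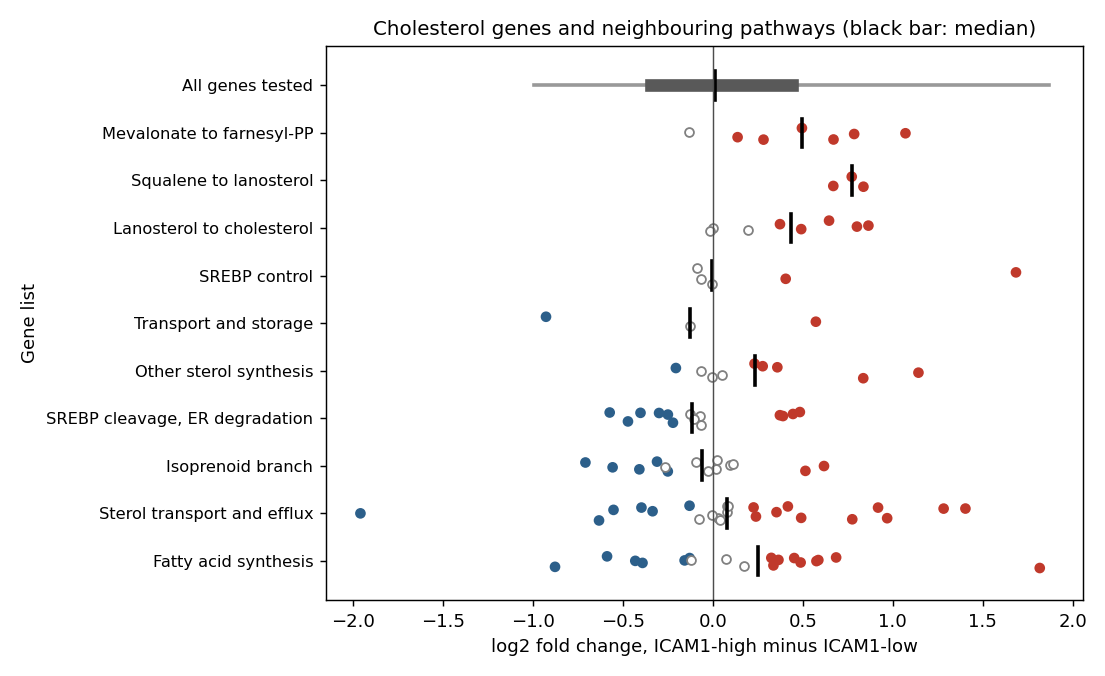
Log2 fold change (ICAM1-high minus ICAM1-low) of every tested gene of the 5 stages and of 5 neighbouring lists; red and blue dots are genes called higher and lower, open dots were not called, black bars are medians, and the top row gives the middle 50% (thick) and 90% (thin) of all genes tested. The 3 synthesis stages hold no blue dot, while each neighbouring list holds both colours.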

How the data were processed

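RNA from 2 ICAM1-high and 2 ICAM1-low libraries was sequenced. Trizol extraction and the SMARTER mRNA-Seq kit are given per the labels' protocols. The authors deposited raw whole-number read counts per gene in a single table. FastQC 0.10.1 and build GRCh38 are named in the submitters' processing notes. Which aligner and counter were used, and how strand and reads shared by genes were handled, is not given in the sources used here. Values of overlapping or near-identical genes are therefore uncertain.

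All 58735 identifiers were found in GENCODE release 29, which gave positions and merged exon lengths, and 58207 had a symbol. Counts were tested with edgeR 4.0.16 in R 4.3.3 (quasi-likelihood test, robust, TMM scaling, filterByExpr with a minimum count of 10 and a total of 15) over 16250 genes, with Benjamini-Hochberg adjustment over all of them and calls at an adjusted p under 0.05. SE and 95% intervals come from this fit, which shares the spread largely across genes. A gene's own libraries therefore add little to its interval. Library totals of 16272591 to 17638647 put 3 counts at 0.161 to 0.196 CPM. The procedure was tested on simulated data.

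The 26 genes and the lists were chosen with earlier results of these data known. All 26 genes are named, and of each neighbouring list the 4 members with the smallest adjusted p, except 1 that is not reported here. The rule for printing promoters, a call of at least 2-fold with the strict element, took 0 genes, and the 4 shown were chosen later. Alternatives were DESeq2 1.42.0, limma-voom (limma 3.58.1), DESeq2 size factors, library size only, other filters, the replicate number as a block, stricter thresholds and omission of each library. A subset left with 1 library borrows its spread from the other.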

Additional observations from a re-analysis of the deposited data

How the results depend on the processing

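Of 286 values of the 26 genes under 11 alternatives each, 257 kept their direction and their side of the threshold, and 14 genes did so under all 11. Library size as the only scaling gave 3124 lower genes in place of 4771, the median over the 26 genes was 0.62, and the uncalled estimates turned positive for INSIG2 (0.11), PMVK (0.0395), SC5D (0.16), SREBF2 (0.0857) and STARD4 (0.0475), as did SREBF1 (0.17, called). A threshold of at least 1.5-fold left 2840 higher and 1963 lower genes, 10 of the 26 among the higher. TM7SF2, estimated at 0.0016, was at -0.0014 with DESeq2 size factors, -0.0018 with DESeq2 and -0.0196 with no filter, and SREBF1 at 0.0079 with a mean of at least 1 CPM. With single libraries left out, the median over the 26 genes was 0.36 to 0.48, 1 to 2 of them were lower, and estimates ran from -0.11 to 0.0645 for SC5D, -0.0429 to 0.0234 for SREBF1 and -0.13 to 0.12 for TM7SF2. The cause was not tested. DESeq2 called 14 of the 26 higher and 1 lower, without ACAT2, HMGCS1 and HSD17B7. HMGCS1 was also not called with no filter (adjusted p = 0.107). The replicate block gave 4976 higher and 4836 lower genes, with 17 and 1 among the 26, and changed no call of theirs. Replicate 1 deviations of the subsets correlated at 0.044, so the numbers were not taken as pairs.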

Other observations

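CYP11A1, the mitochondrial enzyme that turns cholesterol into pregnenolone, the first step of steroid hormone synthesis, had 78 and 92 counts in the ICAM1-high libraries and 0 in both ICAM1-low libraries. Against a floor of 3 counts over the ICAM1-low subset it was at least 47.4-fold higher. Of the 12 hepatocyte and steroidogenic genes listed 2 were tested and 1, CYP11A1, was called higher. CYP11A1 passed the filter on low counts only through ICAM1-high. The filter thus set its direction, and its call cannot be read as a test. CYP7A1 and HSD3B2 were at 0 in every library. STAR, which feeds cholesterol to CYP11A1, had 3 and 1 counts against 0 and 0, too few for a statement. ABCG1, a sterol exporter related to ABCA1 and named here after its values were seen, was lower in ICAM1-high, at 10.4 and 11.8 CPM against 16.8 and 17.5 CPM (edgeR, log2 fold change -0.63, SE 0.12), whereas MYLIP, a ubiquitin ligase for lipoprotein receptors chosen in the same way, was at 17.9 and 19.4 CPM against 10.3 and 8.74 CPM (0.97, SE 0.12). ABCA1, ABCG1 and MYLIP are known targets of the liver X receptors, whose genes NR1H2 (-0.01) and NR1H3 (0.04) did not pass the test.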
